A study of Mus musculus with 11 samples.

Results

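10 genes of myeloid cell-surface receptors and a shared adaptor were followed in mononuclear phagocytes of the mouse epididymis, by region. They are Tyrobp, Trem2, Lilra5 (ENSMUSG00000070873), Cd33, Siglece, Siglec1, Cd300a, Cd300lf, Sirpa and Pilra, picked by name or identifier as 10 of the 37583 genes of the expression table. The list was drawn up with regional differences in these same libraries already known. The regional levels of the members are therefore given as a description, and no test of them is read as a result.

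EGFP+ cells were collected by 2 rounds of sorting from CX3CR1 EGFP +/- mice aged 12 weeks. All groups carry this genotype, in which EGFP is placed under the control of Cx3cr1, the fractalkine receptor gene, and no library came from mice without it. The initial segments (IS) gave 4 libraries, the caput/corpus 3 and the cauda 4, each pooled from 4 epididymides and named here by region and replicate number (IS 1). The labels do not say how many animals stand behind a library, or that libraries of a region came from separate animals, so the spread between libraries may in part be technical.

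Receptors of this kind set how strongly a phagocyte reacts to what it touches. Human CD33 and mouse Siglec-E, CD300a, CD300LF, SIRPα and PILRα carry inhibitory tyrosine motifs (ITIMs) that recruit the phosphatases SHP-1, SHP-2 or SHIP-1. TREM2 has no signalling tail of its own and works through the adaptor DAP12, the product of Tyrobp, whose activating motif (ITAM) recruits the kinase SYK. The epididymis keeps maturing sperm, which first appear at puberty, out of reach of immune attack, and CX3CR1+ phagocytes line its tubules.

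All 10 genes were among the 15116 that passed the filter on low counts. Reads on genes ranged from 16873180 to 31737132 per library. The deposited count file and the expression column of the same name held identical reads for 8 libraries and were in conflict for 3, namely caput/corpus 1, IS 2 and cauda 1. The file under caput/corpus 1 held the reads of the IS 2 column, and the file under cauda 1 those of the caput/corpus 1 column. The file under IS 2 equalled no column, and no file equalled the cauda 1 column. Which region label is right for these reads is not settled by the sources. The values here are those of the named columns. Cauda replicate 1 also stood apart in having reads on 13434 genes, against 17053 to 18837 in the other libraries. Titles begin with Maj3 for 5 libraries (IS 1 and 2, caput/corpus 1, cauda 1 and 2) and with Maj4 for the other 6. The labels do not say what this prefix marks. All 12 macrophage markers listed, Csf1r and Ptprc included, passed the filter. Of 9 neutrophil markers listed, 1 passed it, and S100a9 and Ly6g had no read in any library. The 9 summed to at most 3 CPM, reads scaled by a library size adjusted between libraries (TMM), in any library.

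RefSeq promoter sequence was at hand for 7 of the 10 genes. The 4 windows below are shown because these genes span the regional patterns described further on, from the steep gradient of Lilra5 to Cd300a, whose mean was not highest in the IS. Each holds the 250 bases before the RefSeq start site on GRCm38.p6, written 5′ to 3′ on the strand of the gene. Capitals mark GAGGAA, the core recognised by the myeloid transcription factor PU.1, which on the opposite strand reads TTCCTC.
Lilra5: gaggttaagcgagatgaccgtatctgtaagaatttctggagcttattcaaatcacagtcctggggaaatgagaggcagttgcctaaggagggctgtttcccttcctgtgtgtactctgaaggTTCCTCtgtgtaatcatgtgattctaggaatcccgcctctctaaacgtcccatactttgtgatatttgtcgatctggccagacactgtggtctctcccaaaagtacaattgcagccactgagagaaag
Siglece: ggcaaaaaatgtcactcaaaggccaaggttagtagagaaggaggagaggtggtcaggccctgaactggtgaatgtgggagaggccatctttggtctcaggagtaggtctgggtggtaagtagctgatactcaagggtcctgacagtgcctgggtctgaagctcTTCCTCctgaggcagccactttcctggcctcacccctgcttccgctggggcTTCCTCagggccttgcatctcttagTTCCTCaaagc
Trem2: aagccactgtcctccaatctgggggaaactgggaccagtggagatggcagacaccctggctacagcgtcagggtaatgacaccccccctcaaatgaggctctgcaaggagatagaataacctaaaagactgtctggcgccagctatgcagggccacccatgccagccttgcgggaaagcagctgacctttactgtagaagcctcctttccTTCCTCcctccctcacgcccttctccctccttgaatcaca
Cd300a: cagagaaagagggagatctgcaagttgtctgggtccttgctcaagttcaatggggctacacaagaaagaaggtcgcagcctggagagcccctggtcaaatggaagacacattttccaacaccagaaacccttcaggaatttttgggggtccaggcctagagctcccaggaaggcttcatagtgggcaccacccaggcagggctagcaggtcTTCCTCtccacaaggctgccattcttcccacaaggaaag
The Lilra5 window lies at chr7:4237504-4237753 on the plus strand, that of Siglece at chr7:43660162-43660411 on the minus strand, that of Trem2 at chr17:48346151-48346400 on the plus strand and that of Cd300a at chr11:114889791-114890040 on the plus strand. Counted upstream from the start site, the match spans bases 128 to 123 in Lilra5, 40 to 35 in Trem2 and 39 to 34 in Cd300a. Siglece holds 3 matches, the nearest at bases 11 to 6. In the windows of Cd300lf, Cd33 and Pilra the match starts 43, 226 and 211 bases before the start site. GAGGAA on either strand was thus present in 7 of 7 member windows, and in 23.3% of 32851 RefSeq promoter windows of the same length. The share among other myeloid genes was not computed, so the match is not shown to be particular to these receptors. TGANTCA, the AP-1 core on either strand, was found in 1 member window, that of Trem2 (bases 9 to 3, left in lower case), and in 6.75% of all windows. CACGTG, the E-box of MITF and TFE proteins, was found in 0 member windows and in 6.02% of all. The interferon response pattern of GAAA, 2 bases of any kind and GAAA again was found in 1, that of Pilra, and in 2.98% of all. A match is a run of letters in the window, and no binding was measured.

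**Figure D1:**
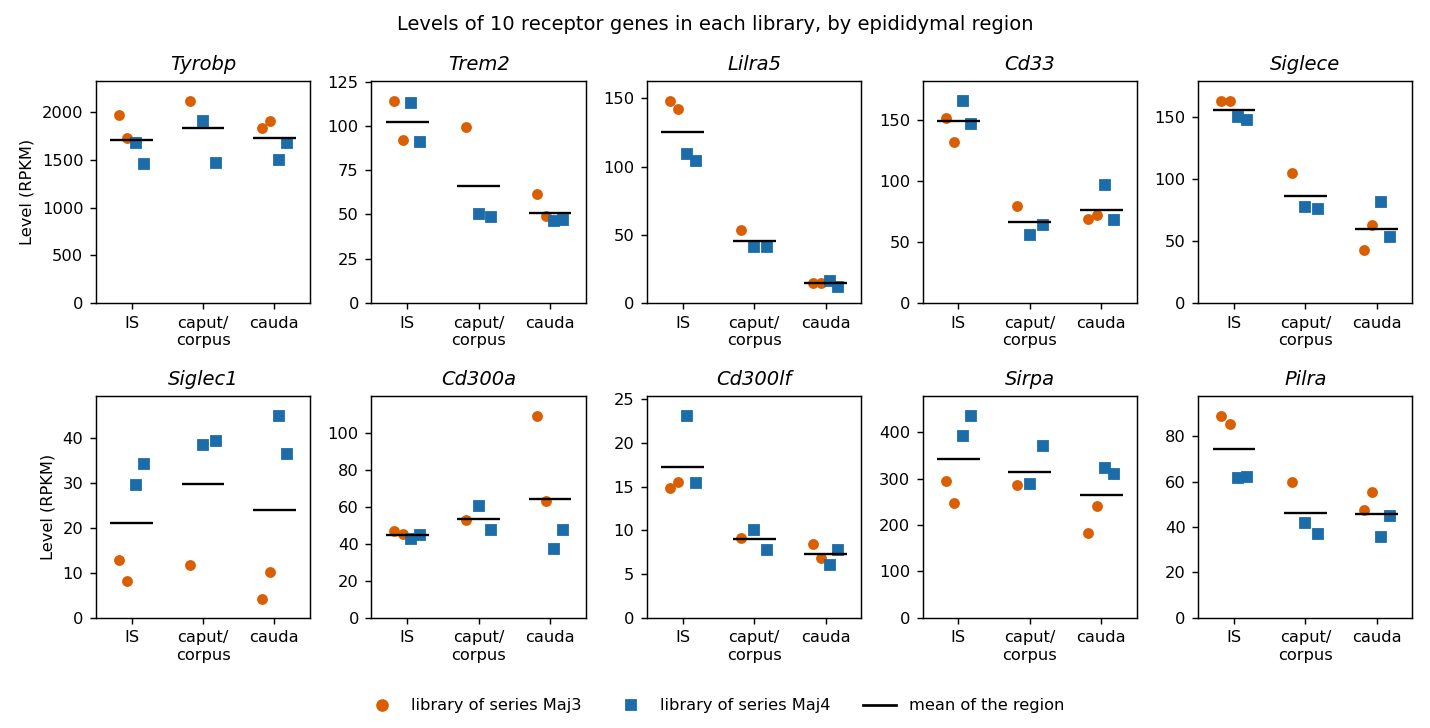
Level of each of the 10 genes (RPKM, linear axis from 0) in every library of the IS, caput/corpus and cauda. Points are libraries, coloured by title prefix, and lines are regional means. Lilra5 falls into 3 separate groups with means of 126, 45.3 and 14.3, while Siglec1 separates by title prefix and Tyrobp stays between 1461 and 2117 in all libraries.

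Levels are in RPKM, in which reads are divided by the length of the gene and a size factor of the library. This lets different genes be set side by side. Log2 differences and their standard errors (SE) come from a model of the counts with title prefix as a covariate. By mean level in the IS the order was Tyrobp, Sirpa, Siglece, Cd33, Lilra5, Trem2, Pilra, Cd300a, Siglec1 and Cd300lf. The neighbours Siglece and Cd33, Cd33 and Lilra5, Lilra5 and Trem2, and Siglec1 and Cd300lf overlapped in their single-library values there.

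Tyrobp encodes DAP12, the adaptor through which TREM2 and many other receptors signal. Its level was 1975, 1733, 1680 and 1461 RPKM in the IS libraries, 2117, 1912 and 1465 in the caput/corpus, and 1840, 1905, 1502 and 1682 in the cauda. The regions overlapped fully, and no library was set apart. The IS differed by -0.14 ± 0.12 log2 units from the caput/corpus, and by -0.02 ± 0.11 from the cauda.

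Trem2 encodes a receptor for lipids, lipoproteins and apoptotic cells. It was at 114, 92, 113 and 90.7 RPKM in the IS, 99.5, 50.1 and 48.3 in the caput/corpus, and 61.8, 49, 46.5 and 46.6 in the cauda. Every IS library lay above every cauda library, and in the caput/corpus 1 lay among the IS values while the other libraries lay among those of the cauda. IS cells were 1.02 ± 0.19 log2 units above cauda cells and 0.63 ± 0.20 above caput/corpus cells. The second difference turned on caput/corpus 1, 1 of the libraries in conflict: it was 0.99 without that library, 1.06 over the 8 libraries free of conflict and 0.02 in the Maj3 libraries alone.

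Lilra5 belongs to the leukocyte immunoglobulin-like receptors, and its human counterpart activates monocytes through the Fc receptor gamma chain. Its level was 148, 142, 109 and 104 RPKM in the IS, 53.8, 41.2 and 41 in the caput/corpus, and 14.5, 14.5, 16.4 and 11.8 in the cauda. The 3 regions did not overlap at any point, and the gradient ran along the duct. IS cells were 2.67-fold above caput/corpus cells (log2 1.42 ± 0.14) and 8.65-fold above cauda cells (log2 3.11 ± 0.13), and the caput/corpus lay above the cauda (log2 cauda over caput/corpus -1.70 ± 0.13). With the counts as filed, in which libraries in conflict take other reads, the first of these differences was 0.61 and the second 2.32.

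Cd33 and Siglece encode sialic acid-binding receptors of the CD33-related Siglec family. Cd33 was at 151, 132, 165 and 146 RPKM in the IS, 79.3, 55.3 and 63.9 in the caput/corpus, and 68.6, 71.6, 96.3 and 68.2 in the cauda. All IS libraries were above all others, and the caput/corpus and cauda overlapped. The IS exceeded the caput/corpus by 1.16 ± 0.17 and the cauda by 0.96 ± 0.15 log2 units. Both differences were smaller with the counts as filed, at 0.66 and 0.74. In mice, unlike in humans, CD33 lacks a typical ITIM, which makes Siglec-E the usual mouse example of an inhibitory Siglec of neutrophils and macrophages.

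Siglece was at 163, 163, 150 and 148 RPKM in the IS, 105, 77.7 and 76.1 in the caput/corpus, and 42.9, 63, 81.5 and 52.9 in the cauda. The IS again lay wholly above both other regions, which overlapped through cauda 3. The IS exceeded the cauda by 1.37 ± 0.19 log2 units and the caput/corpus by 0.85 ± 0.20. Counts as filed gave 0.90 and 0.40. Across the 11 libraries Siglece followed Lilra5 and Cd33 most closely among the members (Pearson r of log2(RPKM + 1) 0.94 and 0.85), values that share the same libraries and scaling and are given as a description. Lilra5 and Cd300lf had an r of 0.86, Sirpa and Siglec1 of 0.82, and Sirpa and Cd300a of -0.78.

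Siglec1 encodes sialoadhesin (CD169), a large macrophage receptor that binds sialylated particles, has no ITIM and is induced by type I interferon. Its level was 12.8, 8.19, 29.6 and 34.2 RPKM in the IS, 11.7, 38.4 and 39.4 in the caput/corpus, and 4.14, 10.1, 44.9 and 36.4 in the cauda. Low and high libraries occurred in every region, and the low ones were those titled Maj3. The regional log2 differences, -0.18 ± 0.31 and 0.09 ± 0.28 for the IS over the caput/corpus and the cauda, were smaller than their SE.

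Cd300a and Cd300lf encode inhibitory receptors that bind phosphatidylserine or other lipids of dying cells. Cd300a was at 47.1, 45.2, 42.7 and 44.7 RPKM in the IS, 52.7, 60.3 and 47.4 in the caput/corpus, and 109, 63, 37.2 and 47.3 in the cauda. The IS libraries were close together and just below those of the caput/corpus, and the cauda spread across both. The IS differed from the caput/corpus by -0.33 ± 0.26 log2 units. Its difference from the cauda, -0.45 ± 0.24, turned on cauda 1, a library in conflict: it was -0.15 without that library and 0.05 in the Maj4 libraries alone.

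Cd300lf was at 14.9, 15.5, 23.1 and 15.4 RPKM in the IS, 9.11, 10.1 and 7.8 in the caput/corpus, and 8.45, 6.87, 6.01 and 7.71 in the cauda. It was the lowest of the 10 in the IS, yet every IS library exceeded every library of the other regions. The IS was 0.93 ± 0.20 log2 units above the caput/corpus and 1.23 ± 0.18 above the cauda. Against the caput/corpus it was 0.49 above with the counts as filed. The highest regional mean of Cd300a, unlike that of Cd300lf, was in the cauda, at 64 RPKM, but it rested on cauda 1: without that library it was 49.1, below the 53.4 of the caput/corpus.

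Sirpa encodes the receptor for CD47, the "do not eat me" signal. It was at 295, 247, 393 and 435 RPKM in the IS, 286, 289 and 370 in the caput/corpus, and 182, 242, 324 and 309 in the cauda. The regions overlapped, and in each region the Maj4 libraries stood above the Maj3 libraries. The IS was 0.16 ± 0.14 log2 units above the caput/corpus and 0.37 ± 0.13 above the cauda.

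Pilra encodes an inhibitory receptor for sialylated proteins. It was at 88.9, 85.2, 61.5 and 62 RPKM in the IS, 59.7, 41.7 and 36.9 in the caput/corpus, and 47.6, 55.5, 35.5 and 44.8 in the cauda. The IS lay above both other regions without overlap, narrowly so against caput/corpus 1. The IS exceeded the caput/corpus by 0.61 ± 0.11 and the cauda by 0.68 ± 0.10 log2 units. Against the caput/corpus the difference was 0.23 with the counts as filed. Pilra was the only member whose exons overlapped another gene in the GENCODE annotation, Zcwpw1 on the opposite strand. Counting was not stranded, so reads of the overlap cannot be assigned. Zcwpw1 itself was counted at 3.34 to 12.3 CPM, which is not scaled by gene length.

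**Figure D2:**
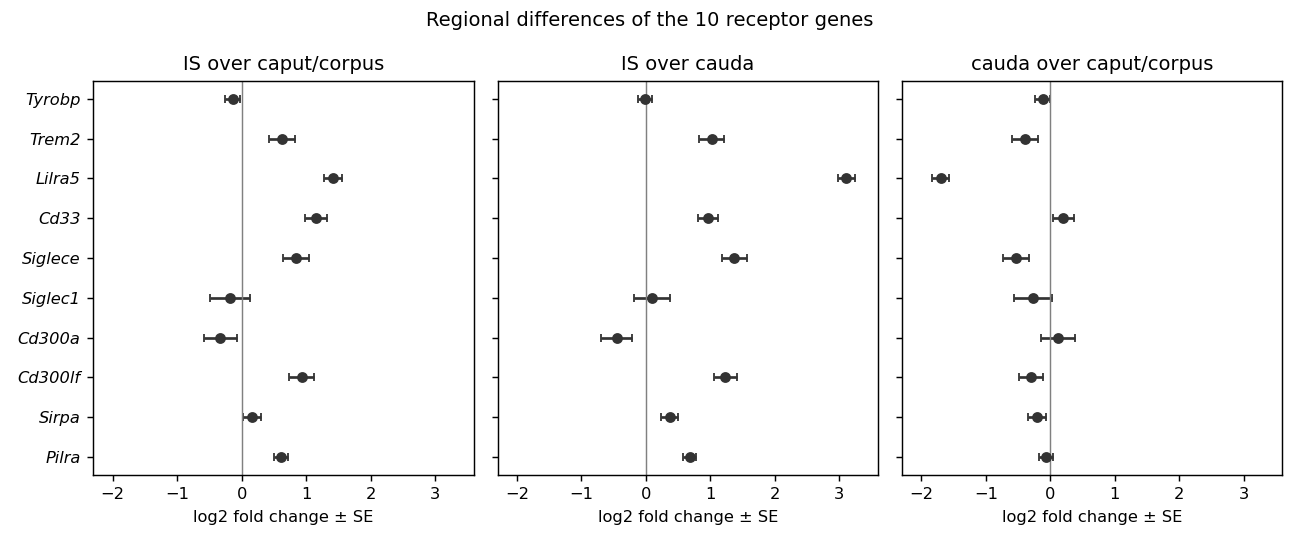
Log2 difference of each gene between regions, with its SE as bars, from the edgeR model over all 11 libraries. Panels share an axis in log2 units. Lilra5 lies farthest right of the 10 for IS over caput/corpus (1.42) and IS over cauda (3.11), and farthest left for cauda over caput/corpus (-1.70).

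Over the 10 genes, the median log2 difference of the IS was 0.62 over the caput/corpus and 0.82 over the cauda, beside 0.02 and 0.05 over all genes tested. Between cauda and caput/corpus the medians were -0.23 and -0.02. Against the caput/corpus, 5 members had all IS libraries above (6.73% of all genes tested) and 1, Cd300a, had all below (7.68%), so that 6 separated either way (14.4%). Against the cauda the counts were 6 (10.5%) and 0 (8.13%), or 6 either way (18.7%). Between the cauda and the caput/corpus, 1 member separated, Lilra5, higher in the caput/corpus (6.59%), and 0 were higher in the cauda (3.05%; 9.64% either way).

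The members were picked from these contrasts, so the calls that follow are listed for completeness and not as support. At an adjusted p under 0.05 in edgeR, 4 members were called higher in the IS than in the caput/corpus (0.794% of all genes tested) and 0 lower (2.98%). Against the cauda 6 were called higher in the IS (7.4%) and 0 lower (9.06%). Lilra5 alone was called between the cauda and the caput/corpus, where 0.582% of genes were called higher in the caput/corpus and 0.0331% higher in the cauda. With the counts as filed edgeR called 0 members in any of the 3 comparisons, where 0, 3 and 1 had an unadjusted p under 0.05. Nothing is read from these counts, or from those of members that separated. Over the 8 libraries free of conflict, the IS lay wholly above the caput/corpus for 6 members (15.6% of all genes tested) and wholly below for 2, Cd300a and Siglec1 (16.4%). Against the cauda these were 6 (14.8%) and 0 (13.4%). Between the cauda and the caput/corpus, Cd33 was wholly higher in the cauda (11.4%) and Lilra5 and Cd300lf wholly lower (12.9%).

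Macrophage markers and those of other cells also differed between regions. The CPM summed over the 12 macrophage markers were 14789 to 21251 in the IS, 11112 to 18791 in the caput/corpus and 9851 to 12974 in the cauda, and 7 of the 12 were called higher and 1 lower in the IS than in the cauda. The CPM summed over 15 markers of epididymal epithelium were 1429 to 3422 in the IS, 359 to 601 in the caput/corpus and 4.28 to 9.63 in the cauda. Of the 15, 13 were called higher in the IS than in the cauda, and 8 higher and 1 lower than in the caput/corpus. This list mixes secretory genes such as Rnase10 and Cst11 with structural ones such as Krt8 and Epcam, which were not summed apart. The sum over 10 mast cell and basophil markers was 42.9 to 123, 804 to 1159 and 1169 to 4322 in the same order, and all 10 were called lower in the IS than in the cauda. The epithelial sum ran downwards along the duct and the mast cell sum upwards.

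For 9 monocyte markers the sum was 561 to 1342 in the IS, 1894 to 2820 in the caput/corpus and 2987 to 4207 in the cauda. For 10 dendritic cell markers it was 684 to 1080, 1882 to 2446 and 1835 to 3358. Immediate early genes, which respond to handling of cells, summed to 6360 to 14204, 15204 to 21733 and 10072 to 26760. The part of any of these in the regional levels of the receptors was not tested. In such bulk libraries, fewer cells of a type and less RNA per cell cannot be told apart.

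The title prefix gave a contrast that had not been used to pick the genes, and both prefixes occur in every region. It was added after the levels had been seen. Of the 10 genes, 3 passed the test, beside 20.3% of all genes tested: Siglec1 and Sirpa were higher in the Maj4 libraries (10.6% of all genes) and Pilra was lower (9.73%).

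Siglec1 averaged 9.38 ± 3.41 RPKM (SD, n = 5) in the Maj3 libraries and 37.1 ± 5.17 (SD, n = 6) in the Maj4 libraries. The 2 sets did not overlap, as was true for 6.91% of all genes with the Maj4 libraries higher, for 5.12% with them lower and for 12% either way. The 3 libraries in conflict were all titled Maj3. The difference was 3.96-fold (log2 1.99 ± 0.26, adjusted p = 0.000715, edgeR quasi-likelihood test with Benjamini-Hochberg adjustment). It passed the test in all 17 alternatives, which refit these same libraries, at 1.66 to 2.14. It was larger than any regional difference among the members except that of Lilra5 between IS and cauda.

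Sirpa differed by 0.50 ± 0.11 (adjusted p = 0.0121, edgeR), a call that was lost over the 8 libraries free of conflict (0.45, adjusted p = 0.0539). Pilra differed by -0.46 ± 0.09 (adjusted p = 0.0052, edgeR), a call lost with the counts as filed (-0.51, adjusted p = 0.113). Cd33, Siglece and Cd300lf showed differences of 0.04 ± 0.13, -0.03 ± 0.16 and 0.07 ± 0.15. Lilra5 differed by -0.28 ± 0.11 (adjusted p = 0.0967) and was called when cauda 3 was left out (-0.38, adjusted p = 0.01). Tyrobp differed by -0.25 ± 0.09 (adjusted p = 0.0844) and was called without caput/corpus 2 (-0.28, adjusted p = 0.0481) and in DESeq2 (-0.23, adjusted p = 0.027).

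Of 18 adaptors and kinases of the activating signal, 4 were higher and 3 lower in the Maj4 libraries, and of 10 inhibitory effectors 2 were higher and 2 lower, beside 20.3% of all genes called either way. Syk was higher in Maj4 libraries (log2 0.82 ± 0.10, adjusted p = 0.00069, edgeR) and Ptpn6, which encodes SHP-1, was lower (-0.47 ± 0.10, adjusted p = 0.00912, edgeR). In the deposited count files, 27.6% to 35.8% of entries were not uniquely aligned in the Maj3 set and 12.5% to 14.7% in the Maj4 set. The part of alignment in these differences was not tested.

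**Figure D3:**
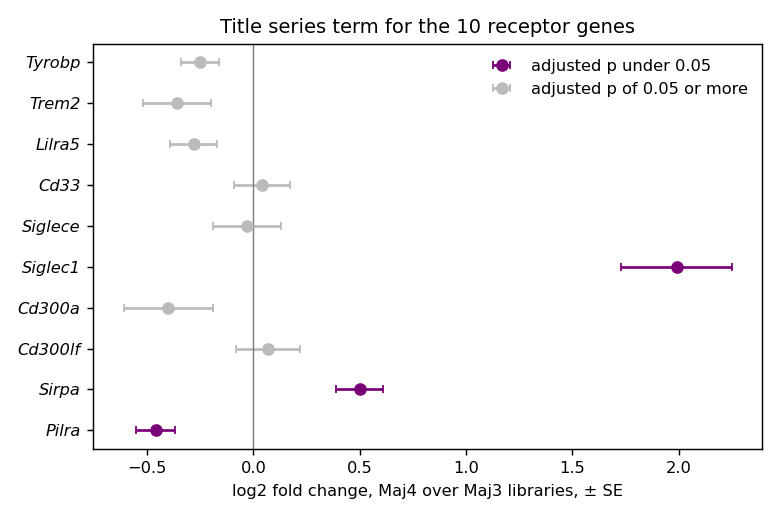
Log2 difference between libraries titled Maj4 and Maj3 for each of the 10 genes, with SE bars, adjusted for region. Purple marks an adjusted p under 0.05 over all genes. Siglec1 stands at 1.99, and the other 9 genes lie between -0.46 and 0.50.

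The wider pathway was taken from 6 lists of 115 genes, of which 113 were tested, chosen with earlier results of these data known. IS against caput/corpus, 3 were called higher and 18 lower in the IS. Against the cauda 26 were higher and 31 lower. None was called between cauda and caput/corpus in edgeR, where 32 had an unadjusted p under 0.05, and DESeq2 called 10. In the same comparisons 3.78%, 16.5% and 0.615% of all genes tested were called in either direction. With the counts as filed edgeR called no pathway gene in any of the 3 comparisons, where 6, 43 and 12 had an unadjusted p under 0.05.

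The relatives of the receptors went both ways. Of 37 related receptors tested, 2 were higher and 9 lower in the IS than in the caput/corpus, and 7 were higher and 12 lower than in the cauda. Without cauda 1 the counts against the caput/corpus were 4 and 12. Members of the Cd300, Sirpb1 and Pira/Lilr families resemble one another closely, so how uniquely aligned reads were split among them is uncertain.

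The relatives with the largest differences towards the cauda included genes of the Cd300, Lilr and Sirp families, though not all genes of these families: Cd300c2 and Cd300ld, picked after their values were seen, had log2 differences of 0.51 ± 0.15 and 0.04 ± 0.16 for IS over cauda. Cd300lb, which encodes a DAP12-coupled activating receptor, averaged 8.34 ± 1.1 RPKM in the IS, 26.7 ± 2.27 in the caput/corpus and 36.9 ± 10.8 in the cauda (SD, n = 4, 3 and 4), 4.35-fold lower in the IS than in the cauda (adjusted p = 7.47e-05, edgeR), while Cd300lf was highest in the IS. Cd300lg and Cd300c were also lower in the IS than in the cauda (log2 -2.69 ± 0.25 and -3.51 ± 0.62, adjusted p = 0.000132 and 0.00359, edgeR). Lilra6, beside Lilra5, averaged 2.34 ± 0.505, 6.1 ± 0.15 and 12.2 ± 3.66 RPKM (log2 -2.36 ± 0.23 for IS over cauda, adjusted p = 0.000172, edgeR). Sirpb1b, of the activating relatives of Sirpa, averaged 5.2 ± 1.42, 15.8 ± 1.48 and 15.1 ± 3.76 RPKM (log2 -1.54 ± 0.26, adjusted p = 0.00311, edgeR).

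Other relatives had the direction of most members. Clec5a, a DAP12-coupled lectin receptor, averaged 25.1 ± 7.04, 10.9 ± 4.91 and 10.4 ± 1.26 RPKM and was higher in the IS than in both other regions (log2 1.12 ± 0.15, adjusted p = 0.00439, and 1.22 ± 0.14, adjusted p = 0.000347, edgeR). Lair1, an inhibitory receptor for collagen, was 2.29-fold higher in the IS than in the cauda (adjusted p = 0.000734, edgeR). Siglech and Cd22, both of the Siglec family, were 4.9-fold and 2.94-fold higher (adjusted p = 0.00895 and 0.00423, edgeR).

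**Figure D4:**
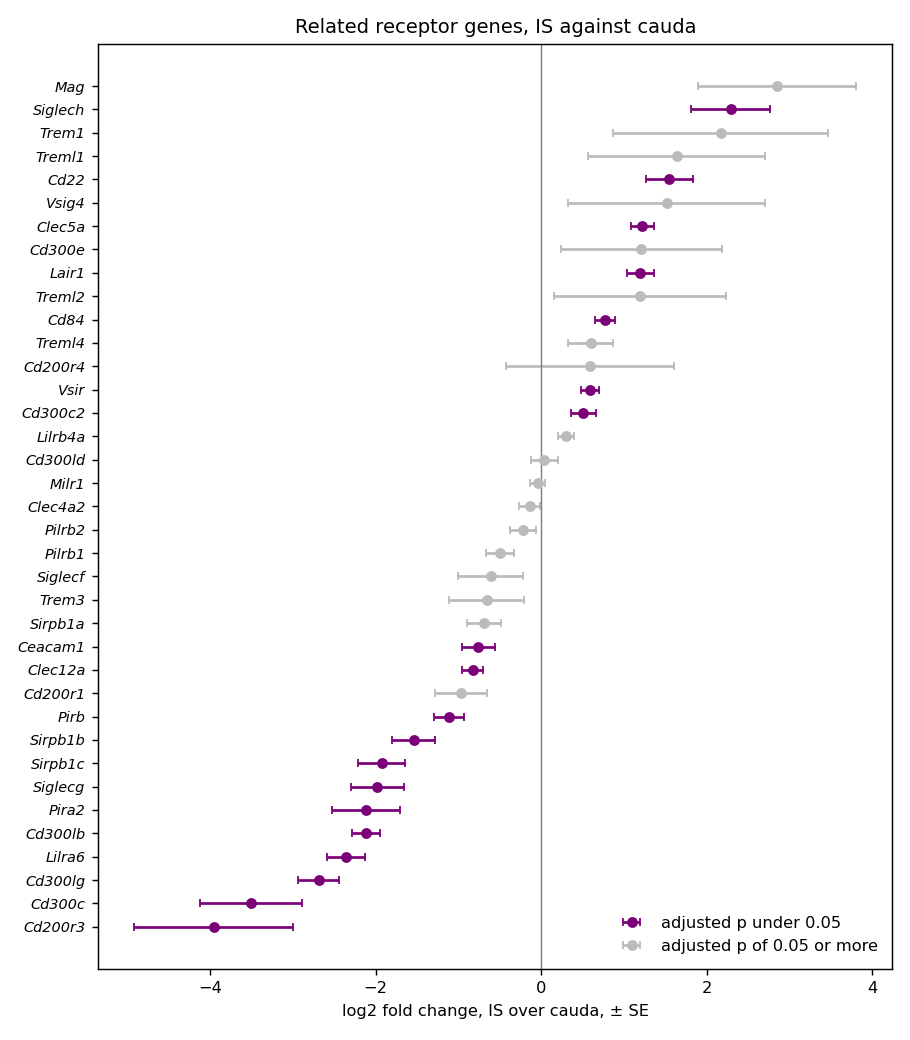
Log2 difference between IS and cauda for the 37 related receptor genes tested, with SE bars, ordered by size. Purple marks an adjusted p under 0.05: 7 genes lie to the right of 0 and 12 to the left, among them Siglech (2.29) and Cd300lg (-2.69).

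Fcer1g, the Fc receptor gamma chain, averaged 1905 ± 246, 1814 ± 338 and 1743 ± 239 RPKM in IS, caput/corpus and cauda, near the levels of Tyrobp. Fcer1g, Hcst (which encodes DAP10), Syk, Ptpn6 and Inpp5d (which encodes SHIP-1) did not pass the edgeR test between the IS and either other region (adjusted p from 0.218 to 0.994). Of 18 adaptors and kinases, 0 were higher and 1 lower in the IS than in the caput/corpus, beside 3.78% of all genes tested called either way. Against the cauda 6 were higher and 3 lower in the IS (1 and 2 over the 8 libraries free of conflict), beside 16.5%. Some of these calls, that against the caput/corpus among them, were lost when a single library was left out. Fgr, a Src-family kinase gene, was 2.44-fold lower in the IS than in the cauda (adjusted p = 0.00262, edgeR), and Blnk, a SYK substrate, was 1.58-fold higher (adjusted p = 0.00854, edgeR). Of 10 inhibitory effectors, 1 was lower in the IS than in the caput/corpus, and 1 was higher and 2 lower than in the cauda, beside the same shares of all genes. The call against the caput/corpus was lost when some single library was left out, as was 1 of those lower than in the cauda. Dok3, an adaptor that restrains ITAM signalling, was 2.16-fold higher in the IS than in the cauda (adjusted p = 0.00275, edgeR), and its relative Dok2 was 7.92-fold lower (adjusted p = 0.00062, edgeR).

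Of 12 ligands and sheddases of the members, 0 were higher and 4 lower in the IS than in the caput/corpus (2 and 5 without cauda 1), and 4 were higher and 5 lower than in the cauda. Cd47, the ligand of the Sirpa product, averaged 87.3 ± 13.8 RPKM in the IS, 135 ± 14.5 in the caput/corpus and 156 ± 32.1 in the cauda. It was lower in the IS than in both (log2 -0.72 ± 0.11, adjusted p = 0.00787, and -0.83 ± 0.10, adjusted p = 0.00059, edgeR). Apoe, a ligand of TREM2, averaged 18329 ± 3814, 9093 ± 5193 and 4122 ± 811 RPKM and was 4.38-fold higher in the IS than in the cauda (adjusted p = 0.000355, edgeR), and Adam17, which sheds TREM2, was 1.42-fold higher (adjusted p = 0.00679, edgeR). Lgals3, which encodes galectin-3, was 3.86-fold lower (adjusted p = 6.43e-05, edgeR).

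Of 17 genes that make, transport, place or remove sialic acid, the ligand of the Siglecs, 0 were higher and 1 lower in the IS than in the caput/corpus (0 and 3 without cauda 1), and 1 was higher and 5 lower than in the cauda (3 and 4). St3gal4 was lower in the IS than in the cauda and St3gal6 higher (log2 -1.36 ± 0.16 and 1.08 ± 0.17, adjusted p = 0.000492 and 0.00208, edgeR). Of 20 genes of the phagocyte state linked to Trem2, 1 was higher and 2 lower in the IS than in the caput/corpus (4 and 4 without cauda 1), and 7 were higher and 4 lower than in the cauda. The lysosomal genes Ctsd, Ctsl and Cd63 were 6.61-fold, 2.9-fold and 2.98-fold higher in the IS than in the cauda (adjusted p = 0.000256, 0.000615 and 0.00187, edgeR), with the regional order of means that Trem2 had. The chemokine gene Ccl6 was 3.99-fold lower in the IS (adjusted p = 0.000155, edgeR). Over the 6 lists, 18 of the 60 calls of genes listed for naming were lost when some single library was left out, and no value is given in the text for those genes on the contrast concerned.

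The genes most like Lilra5 over the 11 libraries were ranked among 9044 other genes with a mean of at least 10 CPM. They were Clpsl2 (Pearson r of log2(CPM + 1) 0.992), Rnase10 (0.992), Cst11 (0.988), Lcn10 (0.988) and Ly6g5c (0.988). Their means in the cauda were only 0.011 to 0.0746 CPM. Such an r does not compare the size of changes: Rnase10 averaged 230, 11.3 and 0.0746 CPM in IS, caput/corpus and cauda, while Lilra5 differed 8.65-fold between IS and cauda. Rnase10, Cst11 and Lcn10 are secretory genes of the epididymal epithelium, whose summed markers were lower away from the IS, as given above. The genes most like Trem2 were Hvcn1 (0.964), Ppcdc (0.962), Gtf2h2 (0.961), Ldhb (0.953) and Slc11a1 (0.952). Hvcn1 and Slc11a1 encode a proton channel and a metal transporter of phagocytes. All of these correlations rest on the same libraries and scaling factors and describe likeness of pattern.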

How the data were processed

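Sorted cells were profiled by RNA sequencing in 11 libraries. Per the submitters' processing notes, STAR, HTSeq and edgeR were used with build mm9; versions and settings are not given in the sources used here. The authors deposited whole counts of reads per gene for each sample, not stranded per the file names. They also deposited an RPKM table of all samples, scaled by gene length and a size factor of each library. RPKM times gene length gave whole reads within 0.001 for all 37583 genes in 11 of 11 columns. The reads behind the column that carries a sample's name were used, since 3 count files did not match it.

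The members and the gene lists were chosen with earlier results of these data known. From these counts, R 4.3.3 with edgeR 4.0.16 (TMM scaling, filterByExpr by region, quasi-likelihood test, title prefix as covariate, Benjamini-Hochberg adjustment over 15116 genes, threshold 0.05) gave log2 differences. edgeR's estimates carry its default prior count. Besides the 10 members, the genes eligible for naming are, from each pathway list and comparison, up to 4 called genes in each direction with the largest differences, and Syk, Ptpn6, Inpp5d, Fcer1g, Hcst and Cd47. The 5 genes most like Lilra5 and Trem2 were ranked by Pearson r. Alternatives were DESeq2 1.42.0, its size factors, limma 3.58.1 on log2(RPKM + 1), no filter, no title prefix, a replicate block, counts as filed, subsets of libraries and leaving out each of the 11 libraries. The model was tested on simulated data in which 100 genes were changed 2-fold and 100 were changed 4-fold in the IS. It called 17 and 41 of them against the caput/corpus, and 31 and 47 against the cauda, with 1 and 2 false calls. A gene that did not pass the test may therefore still differ. The changed genes were drawn at random from those tested. Simulated means held no prefix difference and no other regional difference, so these counts are not recovery rates for the members. Of the marker lists not described above, lymphocyte markers summed to 74.2 to 127, 110 to 176 and 70.1 to 106 CPM (reads scaled by TMM-adjusted library size) in IS, caput/corpus and cauda, and neutrophil markers to at most 3 in any library. Gene symbols were matched through GENCODE M21 for 32860 identifiers. Promoters are from RefSeq, and 1 table of windows served for both members and background.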

Additional observations from a re-analysis of the deposited data

Results flagged for a closer look

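3 of 20 groups of 4 libraries (10 genes in the IS and in the cauda) held a library whose gap to the nearest other exceeded Dixon's critical share of the range of the group, where chance gives about 1 in 20 groups. Cd300lf stood at 23.1 RPKM in IS replicate 3, with the other IS libraries at 14.9 to 15.5 (gap 0.925 of the range). Cd33 stood at 96.3 RPKM in cauda replicate 3, with the others at 68.2 to 71.6 (0.879). Trem2 stood at 61.8 RPKM in cauda replicate 1, a library in conflict, with the others at 46.5 to 49 (0.834).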

How the results depend on the processing

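Of 660 regional values of the members under alternative settings, 627 moved by less than the spread between libraries and 33 by more. That spread was taken within regions and includes any difference between title prefixes, so it is a loose measure for some genes. Siglec1, IS over cauda, ranged from -0.35 to 0.61 and was still counted as within it in every setting. Genes called between IS and caput/corpus numbered 571 and became 1262 in DESeq2, 233 without the title prefix, 0 with the counts as filed (1166 at an unadjusted p under 0.05), 954 over 8 libraries, 934 in limma, 0 in Maj3 alone (404 unadjusted) and 914 with only both regions; leaving out single libraries gave 234 to 1353. Between IS and cauda the 2488 became 1481 without the prefix, 4 as filed, 1144 in Maj4 and 30 in Maj3 (1641 to 3124 without single libraries). Between cauda and caput/corpus the 93 became 637 in DESeq2, 184 with no filter, 41 with the replicate block, 0 as filed (992 unadjusted), 52 over 8 libraries, 143 in limma, 28 in Maj4, 5 in Maj3 and 8 with only both regions (29 to 205). Between title prefixes the 3073 became 1811 over 8 libraries (2003 to 4559). The 21 pathway genes of IS against caput/corpus became 38 in DESeq2, 12 without the prefix, 0 as filed and 0 in Maj3 (20 unadjusted; 10 to 37). The 57 of IS against cauda became 0 as filed, 28 in Maj4 and 1 in Maj3 (44 to 61). The 0 of cauda against caput/corpus became 10 in DESeq2, 5 with no filter, and 1 each with the block, over 8 libraries, in limma and in Maj4 (0 to 4). The counts as filed place the reads of the IS 2 column in the caput/corpus and those of the caput/corpus 1 column in the cauda. That setting thus moves reads between regions, unlike a change of tool or filter. The causes were not tested.

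Libraries that share a replicate number within a title prefix did not deviate together (correlations of -0.242 to 0.284), so the numbers were not taken to pair samples. With the replicate block, 398 genes were called between IS and caput/corpus. Having 3 or 4 libraries a region limits what could be called.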

Other observations

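The count file placed under IS replicate 2 equalled no column of the expression table and was used only where the counts as filed are named. CPM is here scaled by reads on genes alone, without the TMM factor used elsewhere. The 30383072 reads of the file held Lilra5 at 98.4 CPM, where the named columns spanned 236 to 305 in the IS, 87.2 to 107 in the caput/corpus and 25.2 to 35.4 in the cauda. Trem2 was at 153, beside 291 to 385, 163 to 305 and 146 to 192 in the same order. Cd33 was at 138, beside 331 to 443, 143 to 193 and 169 to 254. Siglece was at 140, beside 291 to 294, 144 to 183 and 75.7 to 154. The region of this file was not inferred from its values.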
